A study of Mus musculus with 7 samples.

Results

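Basic helix-loop-helix (bHLH) factors are transcription regulators that bind DNA as pairs. The 89 genes described here are all rows of the deposited count table whose transcription factor family is given as bHLH, 100 in number, less 11 (Atoh1, Hes5, Hey2, Heyl, Id1, Id2, Id3, Id4, Mycn, Twist1 and Mitf), out of 54532 genes in all. They were compared between 4 libraries from Brg1 knockout mouse embryos and 3 from control embryos, all untreated and taken at embryonic day 16. Total RNA came from the epithelium of the cochlea, the spiral canal of the inner ear that serves hearing. The sources used here do not give the Cre driver, the deleted exons, the genotype of the controls or the number of embryos behind a library. Nothing says that libraries of a group came from separate animals, so p-values reflect the spread among these libraries, which may be technical.

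In a bHLH protein the basic stretch contacts a short DNA element, the E-box, and the helices join it to a partner. Tissue-restricted factors such as the Neurod and Nhlh proteins usually pair with the widely made E proteins (Tcf3, Tcf4 and Tcf12), while Hes and Hey proteins repress and the Myc, Usf and Srebf proteins carry a leucine zipper next to the bHLH. In the inner ear, Neurog1 and Neurod1 act in turn in the precursors of spiral ganglion neurons, the cells that wire the cochlea to the brain. Smarca4 encodes Brg1, the motor subunit of BAF complexes, which move nucleosomes.

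Of the 56 members expressed enough to test, 6 (10.7%) fell in the knockout and 2 (3.57%) rose, against 4.87% and 1.94% of all genes tested. The members that fell were the neuronal factors Nhlh1, Nhlh2, Neurod1, Neurod2 and Bhlhe22 and the ligand-activated factor Ahr. The members that rose were the repressor Msc and the Atonal-related gene Atoh8. The calls of Neurod1 and Atoh8 held in only 7 and 5 of 13 alternative settings. Among the E proteins, Hes and Hey factors, Myc network and zipper factors edgeR called no member, while DESeq2 called Hey1.

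The promoters of the called members that RefSeq's table lists (build GRCm38.p6) are shown here because 4 of them belong to neuronal factors that fell together. Each runs from 250 bases before to 50 after the annotated start, 5′ to 3′ on the gene's strand, and capitals mark every E-box of the form CANNTG, which reads the same on both strands. The windows are chr1:172057547-172057846 (minus strand) for Nhlh1, chr3:102009895-102010194 (plus strand) for Nhlh2, chr2:79456587-79456886 (minus strand) for Neurod1, chr11:98329596-98329895 (minus strand) for Neurod2 and chr6:72235528-72235827 (minus strand) for Atoh8.
Nhlh1: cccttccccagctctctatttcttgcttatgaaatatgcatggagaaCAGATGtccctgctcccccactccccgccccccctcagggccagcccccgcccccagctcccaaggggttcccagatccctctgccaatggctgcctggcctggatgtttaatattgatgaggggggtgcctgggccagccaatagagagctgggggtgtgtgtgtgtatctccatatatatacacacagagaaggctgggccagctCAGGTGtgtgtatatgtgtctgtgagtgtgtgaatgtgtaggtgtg
Nhlh2: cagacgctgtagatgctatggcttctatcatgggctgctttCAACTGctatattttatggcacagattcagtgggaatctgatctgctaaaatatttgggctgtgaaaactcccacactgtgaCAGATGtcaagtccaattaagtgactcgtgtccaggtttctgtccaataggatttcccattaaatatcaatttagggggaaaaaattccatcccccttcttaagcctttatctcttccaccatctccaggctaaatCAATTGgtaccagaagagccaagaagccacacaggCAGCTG
Neurod1: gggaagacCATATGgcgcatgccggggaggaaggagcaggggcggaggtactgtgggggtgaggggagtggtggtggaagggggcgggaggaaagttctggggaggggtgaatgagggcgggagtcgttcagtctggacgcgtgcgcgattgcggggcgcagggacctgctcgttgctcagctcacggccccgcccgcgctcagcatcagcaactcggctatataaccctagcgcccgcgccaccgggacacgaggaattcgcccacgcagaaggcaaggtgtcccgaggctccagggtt
Neurod2: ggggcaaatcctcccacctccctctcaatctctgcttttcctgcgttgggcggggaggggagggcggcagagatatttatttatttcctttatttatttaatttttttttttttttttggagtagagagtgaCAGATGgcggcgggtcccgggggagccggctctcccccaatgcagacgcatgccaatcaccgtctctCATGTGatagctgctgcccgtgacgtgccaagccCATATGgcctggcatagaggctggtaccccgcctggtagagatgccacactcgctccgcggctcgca
Atoh8: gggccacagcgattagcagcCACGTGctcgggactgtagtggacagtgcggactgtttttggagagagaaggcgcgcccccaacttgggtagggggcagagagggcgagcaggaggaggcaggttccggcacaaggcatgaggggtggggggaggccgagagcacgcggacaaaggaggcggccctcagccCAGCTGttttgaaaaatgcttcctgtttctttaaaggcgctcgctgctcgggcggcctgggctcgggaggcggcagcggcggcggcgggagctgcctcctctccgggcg
The Nhlh2 window held 4 E-boxes, that of Neurod2 held 3, those of Nhlh1 and Atoh8 held 2 each and that of Neurod1 held 1. The form CAGATG or its reverse complement CATCTG, a subset of CANNTG that Neurod-type pairs are known to bind, occurred once each in the windows of Nhlh1, Nhlh2 and Neurod2 and not in those of Neurod1 and Atoh8. That form was present in 17.2% of 27025 promoter windows of the same length and in 21.7% of the 69 members' windows, and CANNTG in 72.1% and 73.9%. The Atoh8 window held CACGTG, the form bound by Myc, Usf and Clock pairs, which 7.24% of all windows held and 10.1% of the members' windows. A match describes these letters and is not a measured binding site. The 5′ ends in the count table lie within 115 bases of the starts used for these windows.

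Smarca4 itself, in CPM (counts scaled to library size, with TMM factors), read 281.1, 238.8, 227.9 and 249.7 in the knockout libraries, listed here and throughout from replicate 1 to 4. The controls, from replicate 1 to 3, read 371.7, 355.7 and 376.4 CPM. Every knockout library lay below every control library, at 67.8% of the control mean, with a log2 fold change of -0.56 ± 0.09 (SE) and an adjusted p of 0.00338 (edgeR's quasi-likelihood test). The exact two-sided permutation test over 35 splits gave p = 0.0286, the smallest these group sizes allow. Library totals lay between 16097811 and 18871636 counts, at which 3 counts, the floor used here for counting error, are worth 0.159 to 0.186 CPM. The deposited values carry fractions in multiples of 1 divided by 12 that are shared by 2 sets of libraries. The larger set holds knockout replicates 1 to 3 and control replicates 1 and 2, and the smaller holds knockout replicate 4 and control replicate 3, so each set has both groups. All 16 markers of the cochlear duct and its supporting cells were expressed enough to test. They summed to 2734.0 to 3240.8 CPM in knockout and 3320.2 to 3732.7 CPM in control. Of these markers 4 were lower and 1 higher, and 8 lay above 0 and 8 below (median log2 fold change 0.02). Epyc alone fell from 509.6 CPM in control to 179.3 CPM in knockout, so the sums do not show a general fall. The libraries also held other tissue: 11 cartilage markers summed to 9924.5 to 13140.1 CPM in knockout and 8464.7 to 10451.5 CPM in control. Of 10 tested, 1 (Matn1) was higher, and all 10 lay above 0 (median log2 fold change 0.32). In the larger set alone 2 were higher, Matn1 and Col11a1.

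The test called 8 of 56 members, or 14.3%, where it called 6.82% of the 17341 genes tested. In the downward direction it called 10.7% of members against 4.87% of all genes, and in the upward direction 3.57% against 1.94%. The median log2 fold change was 0.01 over the members tested and 0.02 over all genes. At an unadjusted p below 0.05, 8 members were higher and 9 lower, where 9.39% and 11.8% of all genes were, or 21.2% in either direction. The groups did not overlap in 14 members, 6 higher and 8 lower, against 20.7% of all genes (9.27% higher and 11.5% lower), a share close to the background. The calls lay in few roles: 6 of the 9 tested neuronal members were called, 5 of them lower, and of the 47 tested members outside that class 1 was higher and 1 lower. Of these 9, Neurod2 and Neurod6 passed the low-count filter through the control libraries alone, so the filter favoured their lower direction.

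**Figure D1:**
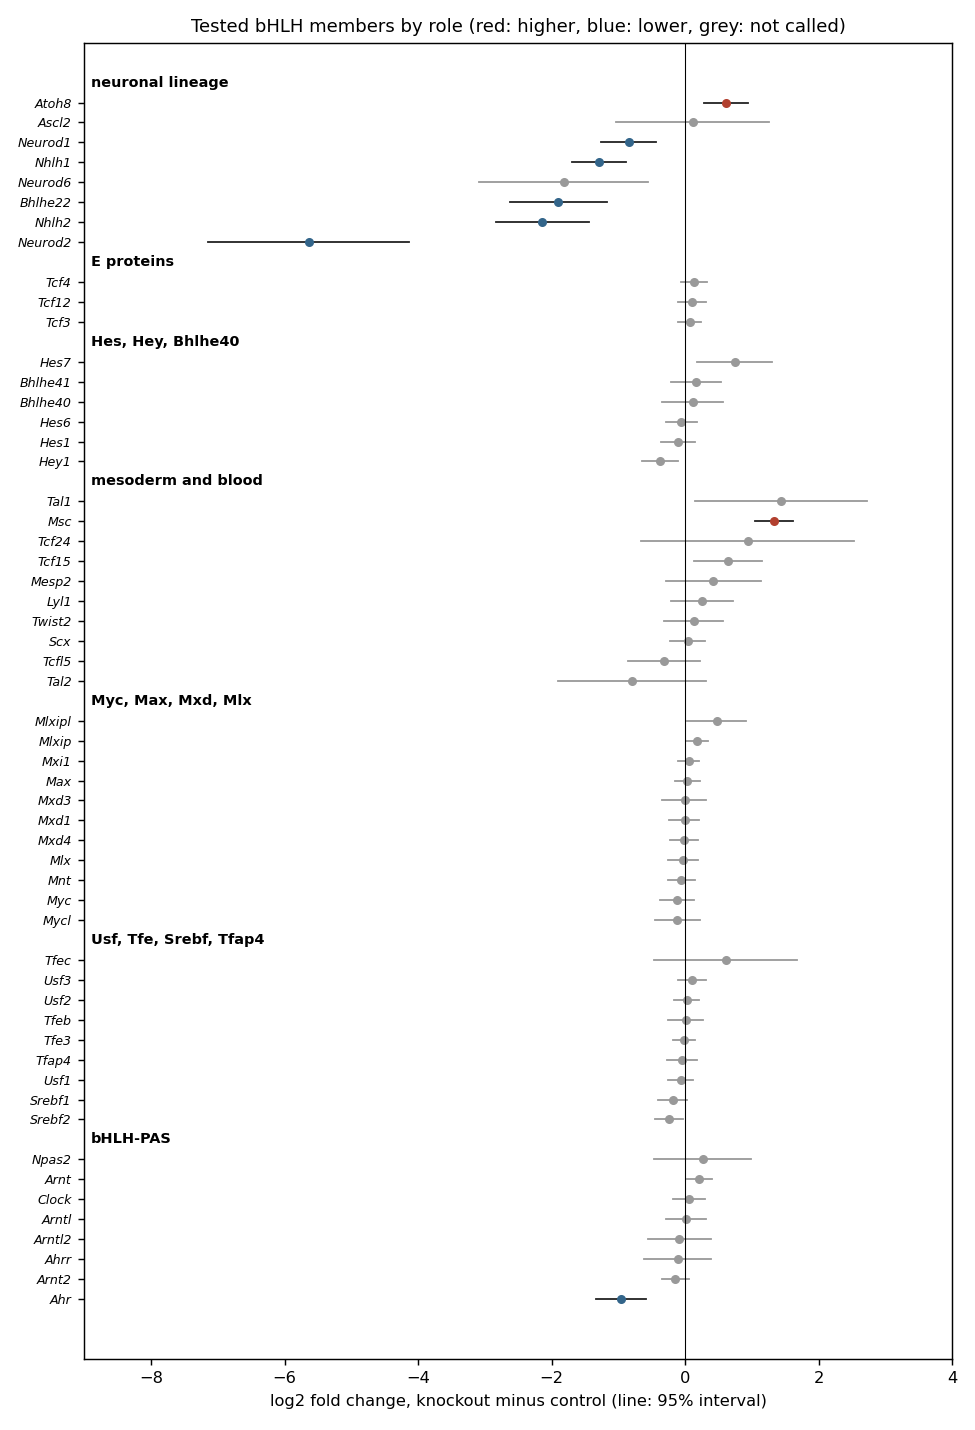
Log2 fold change (horizontal axis, knockout minus control) with its 95% interval for the tested bHLH members, less 1 not reported here, grouped by role. Neurod2 lies farthest from 0 at -5.63, the other lower neuronal members lie between -2.14 and -0.84, and 35 members lie within 0.25 of 0.

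The Nhlh genes encode small bHLH factors of newly formed neurons, and Nhlh1 is also made by young hair cells. Nhlh1 (ENSMUSG00000051251, chromosome 1, 172052292 to 172057573, mm10) was at 3.93, 4.12, 4.69 and 3.98 CPM in knockout and at 8.31, 12.5 and 9.82 CPM in control. The knockout libraries lay close together and all were below the lowest control, and Nhlh1 fell by 1.29 on the log2 scale (SE 0.18, adjusted p = 0.00193). Its paralog Nhlh2 (chromosome 3, 102010076 to 102015492) was at 4.53, 2.14, 2.96 and 1.25 CPM in knockout and at 11.8, 12.8 and 11.5 CPM in control. The controls were tightly grouped and the knockout libraries spread widely, with replicate 1 highest and replicate 4 lowest, and Nhlh2 fell to 22.6% of its control mean (log2 fold change -2.14 ± 0.32, adjusted p = 0.00325). Control levels of the pair were alike, 10.2 ± 2.11 CPM for Nhlh1 and 12 ± 0.694 CPM for Nhlh2 (SD, n = 3), without scaling for length. Per length, Nhlh1 was the higher in control, at 4.04 FPKM against 2.17 FPKM. Both calls held under every alternative run, with adjusted p up to 0.021 for Nhlh1 and 0.0187 for Nhlh2. In the larger set alone the log2 fold changes were -1.29 and -1.93, and the differences of log2(CPM + 0.5) in the smaller set, 1 library a group, were -1.2 and -2.78.

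Neurod1 (chromosome 2, 79452521 to 79456751), which keeps spiral ganglion neuroblasts alive and on the neuronal path and is itself switched on by Neurog1, was at 3.55, 3.90, 3.27 and 3.45 CPM in knockout. In control it was at 5.49, 7.6 and 6 CPM. The groups did not overlap, and Neurod1 fell to 55.6% of control (log2 fold change -0.84 ± 0.19, adjusted p = 0.0213). The call was lost without knockout replicate 3 (adjusted p = 0.0532), knockout replicate 4 (0.0506), control replicate 2 (0.0973) or control replicate 3 (0.0507), in the larger set alone (0.10) and in 1 further alternative, so it held in 7 of 13, while the log2 fold change stayed between -0.95 and -0.71. Neurod1 overlaps Cerkl on the same strand, and Cerkl was at 1.01 CPM in knockout and 1.53 CPM in control with no call.

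Neurod2 (chromosome 11, 98325415 to 98329648), a factor of maturing neurons, showed the lowest fitted log2 fold change of all 17341 genes tested. It was at 1.10, 1.11 and 0.928 CPM in the controls, whereas knockout replicate 2 had 1 count and knockout replicates 1, 3 and 4 had 0 after rounding. The groups were fully apart in both sets of libraries, with 0 counts in knockout replicate 4 against 17 in control replicate 3. The knockout total of 1 count against 58 in control gives, scaled to library totals, a level of 1.38% of control, with an exact 95% interval of 0.0343% to 7.98% that covers counting error only. The adjusted p was 0.00115, and DESeq2 gave no adjusted p for this gene. The fitted value of -5.63 depends on the prior count, so its rank, ahead of Cdhr1 (-4.28) and Tac1 (-4.16), is not established. How the fractional values of the table arose is not stated, and at so few counts they weigh most.

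Neurod6, a further member of that subfamily, was at 0.273, 0.428, 0 and 0.297 CPM in knockout and at 1.2, 0.777 and 0.764 CPM in control. All knockout libraries were below all controls, but Neurod6 did not pass (log2 fold change -1.82 ± 0.58, adjusted p = 0.0912). Neurod4 was at 0 in all 7 libraries. Neurog1, the gene that starts the otic neuronal lineage at earlier stages, had 0.109 CPM in knockout replicate 1 and 0 after rounding in the other 6 libraries, below the floor and untested.

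Bhlhe22 (chromosome 3, 18054174 to 18057517), a repressor of the Olig-related branch that works in neurons, was at 4.47, 1.18, 2.65 and 2.73 CPM in knockout and at 10.1, 12 and 8.84 CPM in control. Every knockout library had less than every control, and the gene fell to 26.8% of its control mean (log2 fold change -1.90 ± 0.33, adjusted p = 0.00705). In the larger set alone it was at -1.99 and did not pass (adjusted p = 0.0559). Atoh8 (chromosome 6, 72206177 to 72235577), a distant relative of Atoh1 known from developing neural and vascular tissue, went the other way. It was at 14.8, 20.3, 14.6 and 18.8 CPM in knockout and at 10.3, 11.6 and 11.8 CPM in control, so the groups did not overlap, and it rose 1.53-fold (log2 fold change 0.61 ± 0.15, adjusted p = 0.0343). This call held under 5 of the 13 alternatives run, the fewest of the 8. It was lost without knockout replicate 2 (adjusted p = 0.0952), knockout replicate 4 (0.0782), control replicate 1 (0.13), control replicate 2 (0.0873) or control replicate 3 (0.0738), and in the larger set alone (0.148), with log2 fold changes from 0.52 to 0.68.

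**Figure D2:**
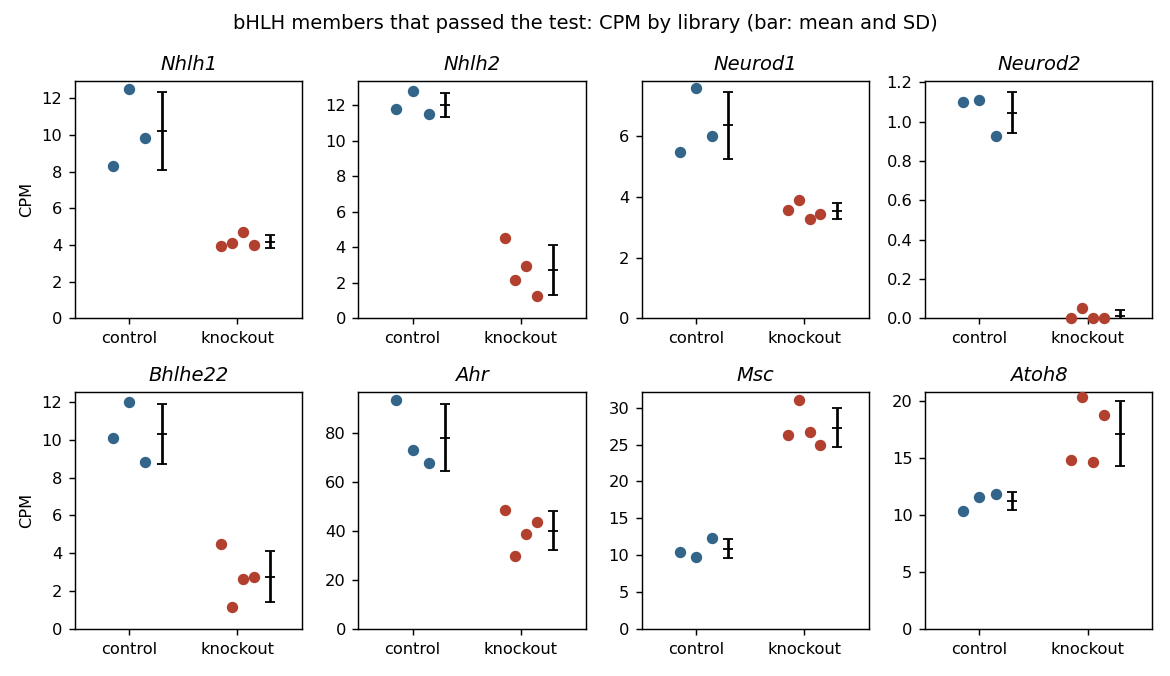
CPM (vertical axes, each from 0) of the 8 called members in each of 3 control and 4 knockout libraries, with the mean and SD of each group. In all 8 panels the groups do not overlap, and only Msc and Atoh8 are higher in knockout.

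The median of the 9 tested neuronal members was -1.29. Neurod2, whose fitted value is no bound, is the lowest of them at either end of its counting interval, so its exact value does not set that median. Neurod2 and Neurod6 are among the 9 only through their control levels, so the median leans on the low-count filter. The 15 neuronal members that were not tested included Neurog2, Neurog3, Olig1, Olig2, Olig3, Atoh7 and Ptf1a, and no library held more than 0.653 CPM of any of them.

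Neuron and glia markers were lower in the same libraries. Of 24 tested markers of neurons 15 were lower, 0 were higher and the median was -1.40 on the log2 scale. Of 13 glia markers 5 were lower, 0 higher and the median was -0.54. In the larger set alone, where 2.49% of all genes were called lower and 1.25% higher, 9 neuron markers and 2 glia markers were lower. The summed neuron markers lay between 1338.2 and 1739.3 CPM in knockout and between 2993.7 and 3338.9 CPM in control. The glia markers summed to 771.0 to 977.4 CPM in knockout and 1318.8 to 1427.5 CPM in control. Relative to the control mean, the 6 Neurod and Nhlh members summed to 40.2%, 34.8%, 35.7% and 29.4% in knockout replicates 1 to 4, and the neuron markers to 53.8%, 41.8%, 54.3% and 46.4%. Abundant genes weigh most in such sums. Gata3 was at 248.5 CPM in knockout and 285.7 CPM in control, and Uchl1 at 356.7 and 505.9 CPM. Nefm fell further, from 477.0 CPM in control to 116.6 CPM in knockout. The sums therefore do not show which of these sets fell further, and this was not tested. The part of a lower neuron content in the fall of these bHLH genes was not tested. In bulk RNA, fewer cells of a type and less RNA per cell cannot be told apart. Hair cell markers, which share the dissection, had 3 of 20 higher and 0 lower (median 0.49), and 1 higher in the larger set alone (median 0.29). At an unadjusted p below 0.05 in edgeR's test 7 were higher and 2 lower, Calb1 (-3.20 ± 1.18) and Pvalb (-1.74 ± 0.45). Control replicate 3 read low for some markers, with Otof at 0 CPM against 16.2 and 16.1 CPM in control replicates 1 and 2. Myo15 was at 1.47 CPM there against 14.1 and 15.9 CPM, while others, such as Tmc1 at 1.26 CPM, were highest there among controls. The hair cell markers summed to 548.1 to 644.5 CPM in knockout and 561.8 to 666.6 CPM in control, overlapping ranges. Calb1 (77.9 CPM in control, 8.56 CPM in knockout) and Pvalb (80.6 and 24.1 CPM) weigh on these sums. Of the 20 markers, 17 lay above 0 on the log2 scale and 3 below, so the overlap does not show that the other markers were alike.

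**Figure D3:**
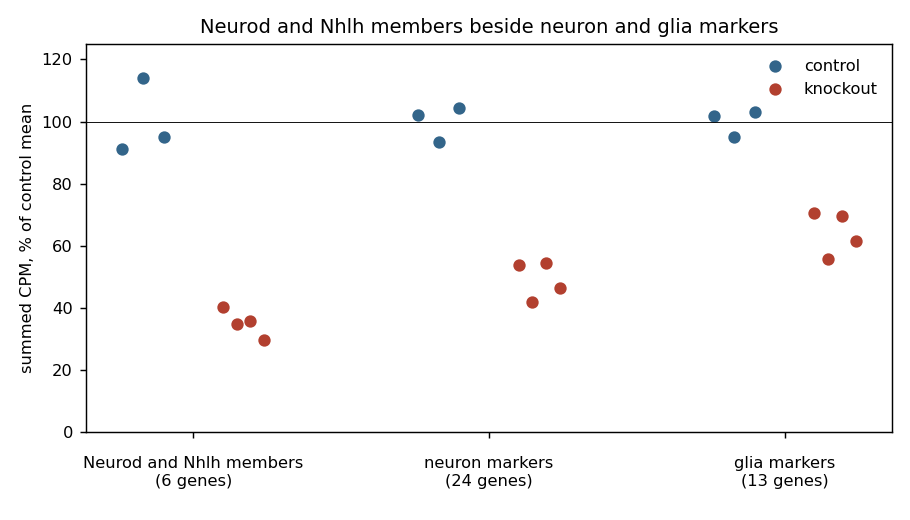
Summed CPM as a percentage of the control mean (vertical axis) in each library, for the 6 Neurod and Nhlh members, 24 neuron markers and 13 glia markers. The knockout libraries span 29.4% to 40.2%, 41.8% to 54.3% and 55.6% to 70.5%, all below the control libraries, which lie at 91.2% or above. Abundant genes weigh most in each sum, and the sets were not tested against each other.

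Other genes of the proneural programme, a list of 28 that act after or beside these factors, were mostly lower where called: 10 fell and 1 rose, with a median of -0.47. The list shares 9 genes with the neuron markers. Myt1, a zinc-finger factor induced in newborn neurons, fell from 24.8 ± 4.71 CPM in control to 7.11 ± 2.54 CPM in knockout (SD; log2 fold change -1.81 ± 0.26, adjusted p = 0.00326). Scrt1, a neuronal Snail-type repressor, fell from 31.9 ± 4.03 to 10.2 ± 3.54 CPM, and Myt1l from 12.1 ± 3.09 to 3.07 ± 1.58 CPM. Insm1, a zinc-finger repressor of neurons and of hair cells, fell by 1.11 on the log2 scale and Dcx, a microtubule protein of migrating neurons, by 1.62. The gene of this list that rose was Gfi1, a hair cell factor, at 8.90 ± 1.49 CPM in knockout and 4.43 ± 1.31 CPM in control. In the larger set alone 5 genes of the list were lower and 0 higher.

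The E proteins, the general partners, were abundant and close between groups. Tcf3 had the highest level per length of all members, at 103.0 ± 3.17 FPKM (fragments per kilobase of gene and library size, as deposited) in knockout and 99.0 ± 2.18 FPKM in control (SD). Its CPM lay between 417.3 and 441.8 in knockout and between 393.6 and 418.4 in control, overlapping ranges, and its log2 fold change was 0.07 (95% interval -0.11 to 0.24). Tcf12 was at 0.10 (95% interval -0.11 to 0.31) and Tcf4 at 0.13 (-0.07 to 0.33). The interval ends all lay nearer to 0 than the log2 fold change of any called member.

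**Figure D4:**
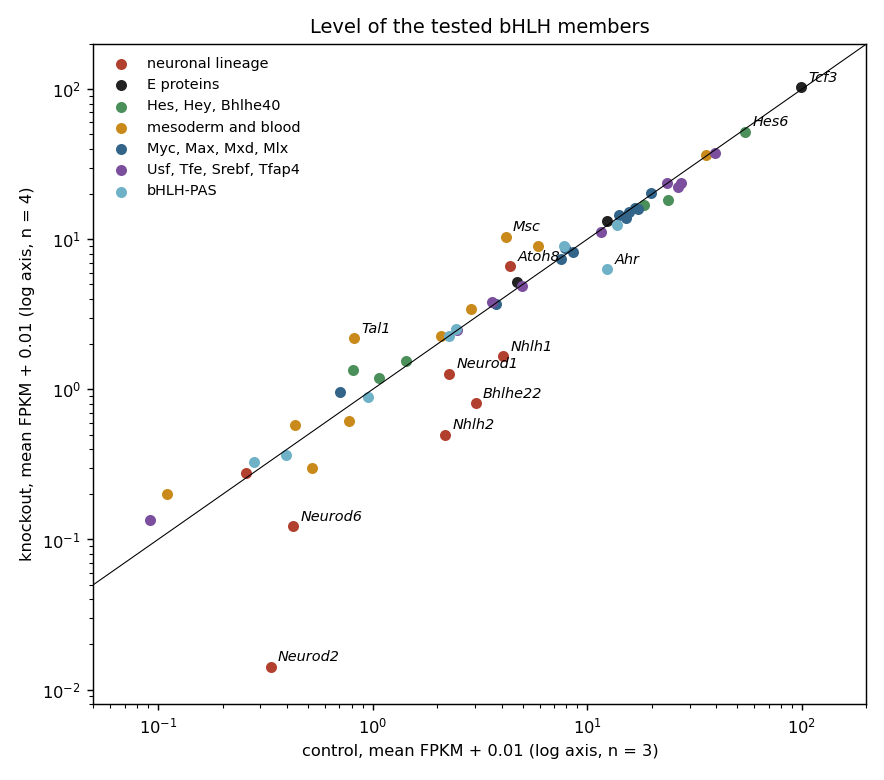
Mean FPKM + 0.01 in control (horizontal log axis) and knockout (vertical log axis) of the tested members, less 1 not reported here, coloured by role, with the line of equal levels. Tcf3 is highest near 100 FPKM in both groups, and Nhlh1, Nhlh2, Neurod1, Neurod2 and Bhlhe22 lie below the line at control levels under 5 FPKM.

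By level per length, 18 of the tested members averaged 10 FPKM or more over the 7 libraries and 13 averaged under 1 FPKM. After Tcf3 at 101.3 FPKM came Hes6 at 53.1, Usf1 at 38.4 and Scx at 36.2 FPKM. The single-library ranges of Usf1 (36.1 to 41.4) and Scx (32.1 to 43.8) overlapped, as did those of Srebf1, Srebf2 and Usf2, the next in order. Of the neuronal members Atoh8 was highest, at 5.66 FPKM, and the 5 that fell averaged between 0.142 and 2.67 FPKM over all libraries.

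Hes and Hey proteins repress proneural genes, many of them under Notch. Hey1 showed the largest shift toward lower values here: 62.1, 68.1, 47.2 and 67.7 CPM in knockout against 80.5, 85.3 and 73.1 CPM in control. The groups did not overlap, yet edgeR did not call it (log2 fold change -0.38 ± 0.12, adjusted p = 0.0942), while DESeq2 did (adjusted p = 0.0429). Hes1, the best known Notch effector, was at -0.11 ± 0.12 and Hes6, which counters Hes1 and marks differentiating cells, at -0.06 ± 0.10. Hes7, known from the somite clock, was low at 2.48 ± 0.355 CPM in knockout and 1.48 ± 0.166 CPM in control and did not pass (adjusted p = 0.116). Hey1 and Hes7 were the members of this class at an unadjusted p below 0.05, and 0 of its 6 tested members were called by edgeR. The 4 markers of the duct and supporting cells that were lower were Sox2, Lfng, Fgf10 and Epyc, of which Sox2 did not pass in the larger set alone (adjusted p = 0.195), and their part in the values of Hey1 was not tested.

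Msc (chromosome 1, 14753346 to 14755992), or musculin, is a repressor first known from muscle precursors and lymphoid cells. It was at 26.3, 31.1, 26.7 and 25 CPM in knockout and at 10.5, 9.77 and 12.3 CPM in control. The lowest knockout library lay far above the highest control, and Msc rose 2.52-fold (log2 fold change 1.33 ± 0.13, 95% interval 1.05 to 1.61, adjusted p = 0.000592). It had the smallest p of the 56 tested members and was called under every alternative run (adjusted p up to 0.0056), at 1.47 in the larger set and with a difference of 1 on the log2 scale in the smaller. An antisense gene, Gm9947, overlaps Msc on the other strand at 1.6 CPM in knockout and 0.896 CPM in control, and the library kit in the labels (NEBNext Ultra) does not mark strand, so reads from the pair cannot be told apart. Muscle markers were low in these libraries: 10 of them summed to 8.62 to 16 CPM in knockout and 10.5 to 13.7 CPM in control, 0 of 6 tested were called by edgeR, and 1 passed an unadjusted p below 0.05. Of 18 periotic mesenchyme markers, 3 (Pdgfra, Prrx1 and Twist1) were higher, 0 in the larger set alone, and none lower (median 0.14), and their sum lay between 5201.8 and 6642.7 CPM in knockout and between 5227.4 and 5960.2 CPM in control. The part of mesenchyme or cartilage content in the rise of Msc was not tested.

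Tal1, a master factor of blood and vessel precursors, varied widely. It was at 3.76, 15.8, 12.7 and 7.01 CPM in knockout and at 2.61, 2.39 and 5.95 CPM in control, so that knockout replicate 1 lay below control replicate 3, and it did not pass (log2 fold change 1.43 ± 0.55, adjusted p = 0.19). Without knockout replicate 1 it was called (1.70, adjusted p = 0.0498). Lyl1, its close relative, was at 0.25 ± 0.22. It overlaps Nfix on the other strand, at 122.3 CPM in knockout and 124.0 CPM in control, so part of the Lyl1 reads may belong to Nfix. Endothelial markers gave 0 calls by edgeR among 13 tested, with 2 higher at an unadjusted p below 0.05 (median 0.13), and erythroid markers 0 among 11, with none at that level (median -0.10), though 1, Hbb-bt, was lower in the larger set alone (-0.75, adjusted p = 0.0321). Of 13 macrophage markers 2, Mrc1 and Tyrobp, were higher (median 0.38), and 0 in the larger set alone. Tcf15, a factor of the paraxial mesoderm and of vessels, was at 9.17 ± 2.89 CPM in knockout and 5.88 ± 0.435 CPM in control (adjusted p = 0.136). Scx, the tendon factor scleraxis, was abundant and at 0.04 ± 0.12, though it overlaps Bop1 on the other strand, so part of its reads may belong to that gene. The muscle factors Myod1, Myog, Myf5 and Myf6 and the heart factors Hand1 and Hand2 were among the 13 members of this class too low to test.

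Ahr (chromosome 12, 35497974 to 35535038), a bHLH-PAS factor that enters the nucleus when it binds certain small molecules, was at 48.7, 29.7, 38.7 and 43.5 CPM in knockout. The controls were at 93.7, 73.1 and 67.7 CPM, all above the highest knockout library. Ahr fell to 51.4% of its control mean (log2 fold change -0.96 ± 0.16, adjusted p = 0.00765) and was called under every alternative run, with adjusted p up to 0.0367. Its partner Arnt was at 74.2 ± 6.05 CPM in knockout and 64.0 ± 3.49 CPM in control and did not pass (0.21 ± 0.09, adjusted p = 0.177). The repressor of the pathway, Ahrr, was at -0.11 ± 0.23, and Arnt2, the neural partner, at -0.15 ± 0.09.

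The clock pair Clock and Arntl stood at 0.05 ± 0.11 and 0.01 ± 0.14 on the log2 scale. Of 15 further clock genes and outputs 2 were higher, Dbp (0.46 ± 0.12) and Per3 (0.39 ± 0.11), and 1 was lower, Nfil3 (-0.72 ± 0.16), an E4-binding repressor of the clock. In the larger set alone edgeR called 0 of the 15. Hif1a, a PAS partner of Arnt that the table does not file under bHLH, was at 0.18 ± 0.11. Among 20 genes of the hypoxia response Ddit4 (163.8 ± 8.42 against 126.6 ± 8.22 CPM) and Pdk1 (111.9 ± 13.1 against 69.0 ± 17.6 CPM) were higher and none was lower, with a median of 0.24. Only Ddit4 was called in the larger set alone.

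In the Myc network all 11 tested members stayed uncalled, and 10 of them lay within 0.25 of 0 on the log2 scale. Myc was at 44.3 ± 4.58 CPM in knockout and 48.2 ± 6.75 CPM in control (-0.12 ± 0.11), and its obligate partner Max at 0.03 (95% interval -0.16 to 0.22). The glucose-sensing factors Mlxip (0.18 ± 0.08, adjusted p = 0.206) and Mlxipl (0.47 ± 0.20, adjusted p = 0.20) were the 2 at an unadjusted p below 0.05, both toward higher values. Of the 9 zipper factors of the Usf, Tfe and Srebf types none was called. Srebf2, which drives sterol synthesis, was at 165.2 ± 20.1 CPM in knockout and 195.6 ± 8.56 CPM in control (-0.24 ± 0.10, adjusted p = 0.165). Srebf1, which overlaps Rai1 on the other strand, was at -0.19 ± 0.10 and Usf1 at -0.07 ± 0.08. Among 19 tested sterol genes 0 were called by edgeR, and 2 were lower at an unadjusted p below 0.05, Hsd17b7 (-0.74 ± 0.20) and Msmo1 (-0.38 ± 0.11), with a list median of -0.10.

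Of the 33 members that were not tested, 10 were at 0 in every library and the others never passed 0.653 CPM, so the main test left them out. With no filter on low counts, the members edgeR called were the same 8. Neurog2 and Myog, chosen after their values were seen, shared the highest single value, 0.653 CPM in knockout replicate 4. Neurog2 was at 0.436, 0.428, 0.247 and 0.653 CPM in knockout and 0.105, 0.277 and 0 CPM in control. Myog was at 0.218, 0.481, 0.308 and 0.653 CPM in knockout and 0.261, 0.61 and 0.273 CPM in control. The groups overlapped in both genes. The untested members were 15 of the 24 neuronal members, 13 of the 23 mesodermal and blood members, 3 Hes-type genes, Mycs and Sim1.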

How the data were processed

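The authors deposited 1 table of counts per gene and 1 of FPKM, with 7 libraries as columns, and control replicate 3 of the titles is numbered 4 in both. Build mm10, the counter featureCounts 1.5.0-p3, the aligner HISAT2 2.0.5, CASAVA 1.8, DESeq2 1.20.0 and fastp are named, without settings, per the submitters' processing notes. The deposited counts are estimated counts, not whole numbers: values of the 21368 genes above 0 in every library were whole twelfths (steps of 1/12, tolerance 0.001), with fractions shared within each set. No label says how they arose, and an adjustment before deposit can change fold changes of low genes and make p-values too small. They were rounded and tested over 17341 genes with edgeR 4.0.16 in R 4.3.3 (TMM, filterByExpr by group, robust quasi-likelihood test, Benjamini-Hochberg adjusted p below 0.05, 5 residual degrees of freedom). The deposited FPKM, used for levels between genes, follow the rounded counts. Standard errors come from the F statistic. Members, roles and lists were chosen with earlier results of these data known. Named were all called members, those at an unadjusted p below 0.05, the 2 highest per role by FPKM and 15 set by name. Other members were named after their values were seen. All 89 members were in GENCODE M21, 88 with the same coordinates, and 69 had a RefSeq promoter. Alternatives were DESeq2 1.42.0, DESeq2's size factors (RLE), no filter, a replicate block, a term for the sets, the larger set alone, an adjusted p below 0.1 and leaving out each library. The values of 1 tested member are not reported here, and the counts and medians include it.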

Additional observations from a re-analysis of the deposited data

Results flagged for a closer look

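Of 31 measures checked over the 4 knockout libraries (CPM of the named genes and of Smarca4), 2 had a single library set apart from the rest, where about 1 in 20 is flagged by chance. Neurod2 was at 0.0535 CPM in knockout replicate 2 and, after rounding, at 0 in the other knockout libraries. Neurog1 was at 0.109 CPM in knockout replicate 1 and, after rounding, at 0 in the other knockout libraries. Both values lie below the floor of 3 counts.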

How the results depend on the processing

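Of 376 values of 29 tested named genes under 13 alternatives, 357 kept their direction and side of the threshold, 15 no longer passed, 4 newly passed and 0 reversed. Msc, Ahr, Nhlh1 and Nhlh2 were called under all 13, and Neurod2 under the 12 that gave it an adjusted p. The number of members called higher was 2. It was 1 (Msc) under the replicate block, under the term for the sets and in the larger set alone, where 1.05%, 1.19% and 1.25% of all genes were higher. With each library left out it was 1 to 3, where 0.599% to 2.02% of all genes were higher. The number called lower was 6. In the larger set alone it was 4 (Ahr, Neurod2, Nhlh1 and Nhlh2), where 2.49% of all genes were lower. At an adjusted p below 0.1 it was 8, where 7.09% of all genes were lower. With a library left out it was 5 to 7, where 2.54% to 4.93% of all genes were lower. The median log2 fold change of members, 0.01, was 0.00 with DESeq2 and -0.02 with no filter, which tests more low genes, and -0.03 to 0.02 with a library left out. Of all genes, 1182 were called, 779 under the replicate block, 657 in the larger set alone, 1869 at an adjusted p below 0.1, and 556 to 1195 with a library left out (556 without control replicate 1, 763 without control replicate 2, 783 without knockout replicate 2). The cause was not tested. The replicate numbers of the titles did not pair the libraries: deviations of same-numbered libraries correlated at -0.0972, -0.181 and 0.0252. Control replicate 3, numbered 4 in the deposited columns, correlated at -0.462 with knockout replicate 4. The replicate block used the title numbers. It therefore left out knockout replicate 4 and joined knockout replicate 3 of the larger set to control replicate 3 of the smaller. Under the replicate block Neurod1 (-0.82, adjusted p = 0.0929) and Atoh8 (0.55, adjusted p = 0.113) did not pass and Hey1 did (-0.44, adjusted p = 0.0337). With the term for the sets Atoh8 was at adjusted p = 0.053. In the larger set alone Neurod1 was at adjusted p = 0.10. Without knockout replicate 1, Srebf2 (-0.33, adjusted p = 0.0314) passed.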
